A study of Mus musculus with 7 samples.

Results

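The genes described here are 35 genes that hepatocytes, the main cells of the liver, use to make plasma proteins, carry lipids, clear ammonia and handle amino acids, glucose and bile acids. They were given as a list by name and not chosen by any measured value. They are 35 of the 49943 RefSeq genes with a position on the assembled chromosomes of mm10, and they form 31 loci once genes whose windows overlap are joined. The window of a gene was the gene with 5 kb on each side. The assay was ChIP-exo 5.0 for CTCF, in which an exonuclease digests immunoprecipitated DNA up to the crosslinked protein, so that each sequenced tag marks where it stopped. A single library was made from each of brain, lung, kidney and liver of wild-type adult male mice, and from each step of a liver titration, with 2,700,000, 270,000 and 27,000 cells, numbers that the methods estimate from wet weight. The library of liver outside the titration is called the liver organ library. No allele or treatment separated the groups. The tissues were not sorted, so each library mixes the cell types of its organ.

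CTCF is a zinc finger protein that binds a long, well-conserved motif at insulators, at the borders of chromatin domains and at some promoters, and many of its sites are known to be occupied in most cell types. Albumin, fibrinogen, the apolipoproteins and the urea cycle enzymes are among the most highly expressed genes of hepatocytes, whereas brain and lung express few of them. Ass1, Pck1 and some others are also well known in kidney.

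The depth differed widely between the libraries. Outside the mitochondrial genome, unplaced sequence and 13 bins of 10 kb that were dense in peaks in at least 6 libraries, the deposited peaks of the organ libraries held between 395304 tags (liver organ) and 1443069 tags (kidney), with 924935 for brain and 651445 for lung. The library of 2,700,000 liver cells had 5996472, that of 270,000 cells 485877 and that of 27,000 cells 22475. Peaks whose tags all started at 1 position made up 33.4% of the peaks of 2,700,000 liver cells and 79.2% to 94.3% of those of the other libraries. With 1 library per group, no difference has a replicate check, no p-value is given, and intervals are exact Poisson (counts) or Wilson (shares) intervals at 95% that cover counting error only. RNA was not measured, so the labelled tissues could not be checked against their marker genes.

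Sites were defined from the library of 2,700,000 liver cells as peak pairs, each a forward-strand peak with a reverse-strand peak 10 to 80 bp downstream of it, kept at least 100 bp apart. This gave 77321 sites, of which 75 lay at member genes. A site was counted as holding tags in a library when the 200 bp around its centre held at least 2 tags, the lowest count listed. Because the list comes from liver, it cannot show sites bound in another organ alone.

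Only 1 of the 27 members with a RefSeq promoter sequence (GRCm38.p6, 250 bases before the start to 50 after it) had a site in that promoter. It was Ass1, which encodes argininosuccinate synthase of the urea cycle. The site centre lay at -184 bp from the start, at position 31470086 of chromosome 2, and the 300 bp promoter held 35 tags in 2,700,000 liver cells, 7 in 270,000 cells and 0 in each organ library. The first 141 bases of that promoter, chr2:31470020-31470160 on the plus strand, are shown because they hold the site, with a match to the core CTCF letters CCACNAGNG in capitals.

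Ass1 promoter: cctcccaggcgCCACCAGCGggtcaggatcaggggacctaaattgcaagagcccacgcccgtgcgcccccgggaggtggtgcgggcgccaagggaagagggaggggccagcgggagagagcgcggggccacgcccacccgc

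The match CCACCAGCG begins at -239 bp from the start, on the strand of the gene. The 2 exonuclease stops paired as this site lie at -213 and -155 bp, with 4 and 14 tags, and the match is upstream of both. Peaks on the gene's strand with 7 tags at -246 bp and 5 tags at -261 bp lay upstream of the match. They are too far from the stop at -155 bp for the 80 bp limit on pairs. The match thus lies between these stronger peaks and the stop at -155 bp. CCACNAGNG, searched on both strands, was found in 4.10% of 32851 promoters and in 12.8% of the 1606 promoters with a site. Among the members, Tat, tyrosine aminotransferase, was the other gene with a match, CGCTCGTGG, which is the motif read on the other strand, 28 bp after the start, and its promoter held 0 tags in 2,700,000 liver cells, 4 in 270,000 and 4 in kidney. The second motif searched, AGNNGGCGC, which covers the later letters of the CTCF motif and shares its first letters AG with the end part of the other, was present in no member promoter, in 7.23% of all promoters and in 30.1% of those with a site. A site lay in 4.89% of all promoters.

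Peak pairs at member genes were found mainly in the deepest library. In 2,700,000 liver cells 25 of the 35 members had a pair, against 67.6% of protein-coding genes. Brain had a pair at 10 members (14.6% of all genes, 23.4% of protein-coding genes), lung at 6 (7.77% and 12.7%), kidney at 2 (6.48% and 10.6%) and 270,000 liver cells at 5 (6.73% and 10.6%). The liver organ library had a pair at a single member, Pck1 (2.17% and 3.35%). At least 1 organ had a pair at 13 members (20.1% and 31.5%). Most of these shares were near those of protein-coding genes, and depth limits each of them.

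The 10 members without a site were spread over 5 of the 6 roles. They were Fga and Fgg, which encode fibrinogen chains, Hp (haptoglobin) and Ttr (transthyretin) among the carriers, Arg1 and Otc of the urea cycle, Tdo2, which opens tryptophan breakdown, and all 3 cytochrome P450 genes, Cyp2e1, Cyp7a1 and Cyp8b1. All 8 apolipoprotein genes had a site. Members held 8.18 sites per 100 kb of window, against 4.20 for protein-coding genes and 4.09 for all genes, and the lists of widely expressed genes and of other liver genes held 8.48 and 7.33. The apolipoproteins held 15.4 per 100 kb in short, clustered windows and the clotting and complement genes 4.94. Of the 75 sites, 53 lay inside the gene, 8 upstream, 13 downstream and 1 beside a gene whose strand was not given. Tags per site in 2,700,000 liver cells ran from 4 to 397 with a median of 37, and the median distance between the 2 exonuclease stops was 46 bp at member sites and 46 bp at all sites.

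Ass1 carried 15 of the 75 sites, the most of any member, and the one with the most tags. That site, centred 2600 bp inside the gene at chr2 position 31472870, held 397 tags (359 to 438) in 2,700,000 liver cells, 17 in 270,000, 2 in the liver organ, 9 in lung, and 0 in brain and kidney. The site 3839 bp from the start held 86 tags in 2,700,000 cells and 13 in 270,000, and 0 in each of the 4 organ libraries. The sites were chosen from the library of 2,700,000 cells, so its own high count there is no comparison. The pair of neighbouring sites 12843 and 12964 bp from the start, whose 200 bp windows overlap and which count as 1 locus, differed from these. The first held 130 tags in 2,700,000 cells, 3 in 270,000, 15 in lung, 11 in brain and 0 in both kidney and the liver organ, and the second held 124 and 3 in the titration libraries, 10 in lung, 8 in brain, 3 in kidney and 2 for the liver organ. Neighbouring loci in this gene thus had tags in different sets of libraries. Kidney, in which Ass1 is also known to be expressed, had 1 pair in the gene that was not near any liver site, of 5 tags at chr2 position 31500592, where every other library held 0.

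The other urea cycle gene with sites, Cps1, encodes the mitochondrial enzyme that makes carbamoyl phosphate. Its site at chr1 position 67144141 held 84 tags (67.0 to 104) in 2,700,000 liver cells and 0 in each of the other libraries, where its share of all tags at sites would give 4.44 tags in brain, 4.64 in lung, 2.32 in kidney, 0.913 in the liver organ and 2.45 in 270,000 cells. The exact interval of a count of 0 reaches 3.69 tags, which is under the values for brain and lung and above the others. Peaks of under 2 tags are not listed, so a 0 can hide such tags and the interval does not cover that. Of all sites with at least 50 tags in 2,700,000 cells, 21.1% held none in brain, lung and kidney. Its site at position 67181371 held fewer tags there, 56, yet held 20 in brain, 8 in lung, 4 in kidney, 3 in the liver organ and 3 in 270,000 cells. The overlapping site at 67181474 held 51, 11, 8, 0, 3 and 0 in the same libraries. The remaining Cps1 sites, at 67141130, 67216440, 67218346 and 67218461, held 18, 12, 18 and 21 tags in 2,700,000 cells, and of the other libraries kidney alone held any, 3 at each of the last 2. The loci at 67144141 and 67181371 lie in the same gene. In 2,700,000 cells their order of strength was the opposite of that in brain. In 270,000 cells and the liver organ, as in brain, only the locus at 67181371 held tags.

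Apob, which encodes the structural protein of very-low-density lipoprotein, had 2 strong loci in liver cells. The site 13322 bp from the start, at chr12 position 7990999, held 263 tags (232 to 297) in 2,700,000 cells and 22 in 270,000, with 10 in brain and 0 in lung, kidney and the liver organ. A group of overlapping sites near the start formed the other locus. The strongest, 1072 bp inside the gene, held 186 tags in 2,700,000 cells, 18 in 270,000, 3 in brain and 0 in lung, kidney and the liver organ, and its neighbour at 965 bp held 170 and 13 in the titration libraries, 2 in kidney, 0 in lung, 5 in brain and 2 in the liver organ. Lung held 0 tags at every Apob site. These were also among the members' strongest sites in the library of 270,000 cells, which had pairs of 18 and 11 tags at these loci and an equal pair of 11 tags at the strongest Ass1 site.

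Sites of Apoa2, Apoa1, Apoc3 and Apoa4 also held tags in brain and lung, whereas those of Apoa5 and Apoc1 held 0 in brain. Upstream of Apoa2, which encodes a protein of high-density lipoprotein, the overlapping sites at -553 and -671 bp from the start held 171 and 130 tags in 2,700,000 cells. In brain they held 9 and 10 tags, in lung 19 and 3, in 270,000 cells 4 and 6, and in kidney and the liver organ 0. Another Apoa2 site, 1191 bp inside the gene, held 11 tags in kidney, the most in that library at any member site, against 7 in brain, 2 in lung, 0 in the liver organ, 48 in 2,700,000 cells and 7 in 270,000. In the cluster of Apoa1, Apoc3, Apoa4 and Apoa5 on chromosome 9, the site 1363 bp from the start of Apoa1, which also lies in the Apoc3 window, held 15 tags in both brain and lung, 8 in kidney, 0 in the liver organ, 41 in 2,700,000 cells and 0 in 270,000. The overlapping site at 1515 bp held 11 tags in brain, 5 in kidney, 26 in 2,700,000 cells and 0 in the other 3 libraries. The site 6142 bp from the start of Apoa4 held 21 tags in brain, the most of any member site in an organ library, with 10 in lung, 2 in kidney, 2 in the liver organ, 64 in 2,700,000 cells and 7 in 270,000. The sites of this cluster thus differed in how many organs held tags. At Apoe the site at chr7 position 19701274 held 49 tags in 2,700,000 cells, 2 in brain, 2 in lung, 2 in the liver organ and 0 in kidney and 270,000 cells. The Apoe sites at 19695902, which also lies in the Apoc1 window, 19698262 and 19699713 held 15, 35 and 16 tags in 2,700,000 cells and 0 elsewhere, and that at 19701415 held 14 there, 3 in brain, 2 in 270,000 cells and 0 elsewhere. Apoc1 had a pair of 8 tags in 270,000 cells, at chr7 position 19686662, where every other library held 0.

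Among the carriers, Alb, which encodes albumin, had only weak sites. Its 3 sites held 5, 4 and 6 tags in 2,700,000 liver cells and 0 in each of the other libraries. Afp, the fetal counterpart next to it, had a strong site 10230 bp from its start, with 143 tags in 2,700,000 cells, 7 in 270,000, 2 in the liver organ, 0 in kidney, 8 in lung and 13 in brain. Adult liver is known to express Alb strongly and Afp hardly at all. Ambp, which encodes the precursor of alpha-1-microglobulin and bikunin, had both kinds of site. The site 6697 bp from the start held 110 tags (90.4 to 133) in 2,700,000 cells and 0 elsewhere, and the site at -4953 bp held 78 there, 9 in brain, 10 in lung, 7 in the liver organ and 0 in kidney and 270,000 cells. Trf, which encodes transferrin, had a site 928 bp outside the gene with 96 tags in 2,700,000 cells, 7 in 270,000, 3 in kidney, 6 in lung, 9 in brain and 0 in the liver organ.

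Of the clotting and complement genes, C3, Fgb and F9 had sites with organ tags. The C3 site 8789 bp from the start held 48 tags in 2,700,000 cells, 3 in kidney, 4 in lung, 7 in brain and 0 in the liver organ and 270,000 cells. The Fgb site at -4042 bp held 35 tags in 2,700,000 cells, 6 in brain, 10 in lung and 0 in the other 3 libraries, and the second Fgb site, 9142 bp from the start, held 33 tags in 2,700,000 cells and 0 in the others. The F9 site, 13796 bp from the start of this clotting factor gene, held 37 tags in 2,700,000 cells, 9 in brain, 8 in lung and 0 in the other 3 libraries. In this role no site had 50 tags or more in liver cells.

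The enzymes of gluconeogenesis and amino acid breakdown ranged from sites shared by all organs to sites seen in 1 library. The site 221 bp downstream of Pck1, which encodes the cytosolic phosphoenolpyruvate carboxykinase, held 104 tags in 2,700,000 cells, 5 in 270,000, 5 in the liver organ, 3 in kidney, 9 in lung and 5 in brain. It was one of the few member sites with tags in every organ. The overlapping site 336 bp downstream held 56 tags in 2,700,000 cells, 5 in 270,000, 2 in the liver organ, 2 in brain and 0 in lung and kidney, and the site inside the gene held 5 in 2,700,000 cells and 0 elsewhere. The site 30 bp downstream of Hpd, an enzyme of tyrosine breakdown, held 135, 10 and 0 tags in these liver libraries, 15 in brain and 0 in lung and kidney. At Tat, an enzyme of the same pathway, the sites at 12727 and -1044 bp from the start held 101 (82.3 to 123) and 53 tags in 2,700,000 cells and 0 in each of the other libraries. The start here is that of the promoter sequence, which lies inside the gene's RefSeq span (109986078 to 109999804). The site at -1044 bp is thus inside that span and the site at 12727 bp is downstream of it. Just outside the 200 bp of these sites, among further peaks of 2,700,000 cells, 270,000 cells held 5 tags at 12558 bp and the liver organ 4 at -1159 bp.

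**Figure D1:**
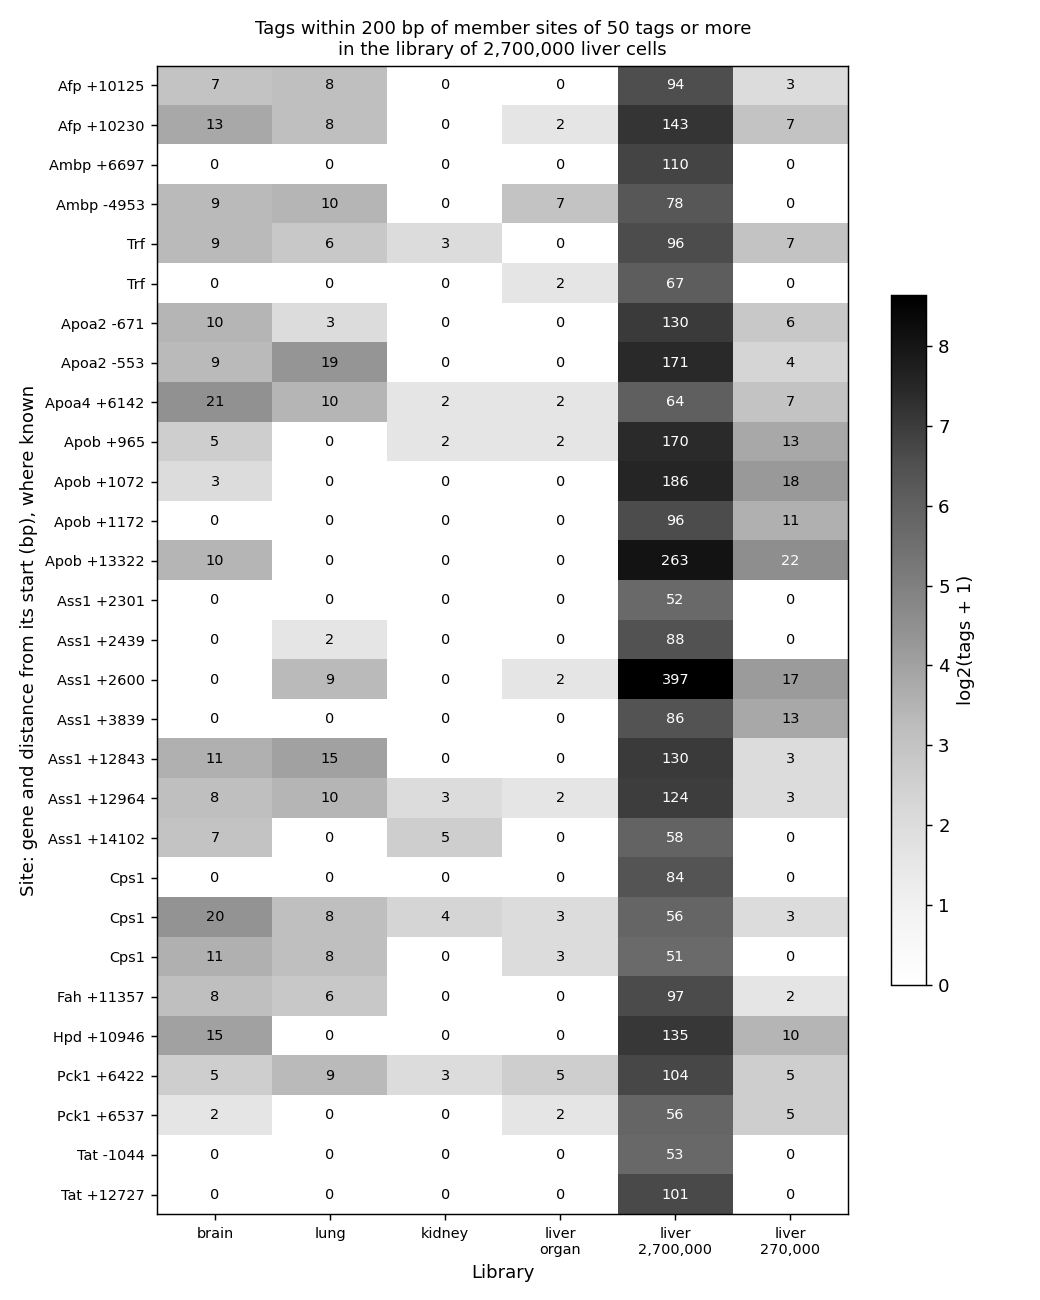
Tags in the 200 bp around each of the 29 member sites with at least 50 tags in 2,700,000 liver cells (rows, by role and position) in 6 libraries (columns), with grey by log2(tags + 1). Libraries differ in depth, and 8 rows have 0 tags in brain, lung and kidney.

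Site by site, the members were found in the organs about as often as sites elsewhere. Of the 75 member sites, 30 held tags in brain (29.7 to 51.3%, against 36.8% of all sites), 23 in lung (21.4 to 41.8%, against 28.6%) and 14 in kidney (11.5 to 28.9%, against 25.7%). The liver organ held tags at 12 (9.40 to 25.9%, against 14.7%) and 270,000 liver cells at 26 (24.9 to 45.9%, against 28.4%). Of the 29 sites with at least 50 tags in 2,700,000 cells, 19 held tags in brain (64.0% of all such sites), 15 in lung (51.2%), 11 in the liver organ (27.5%) and 19 in 270,000 cells (55.8%). The share in kidney was lower at this limit on tags. Kidney, the deepest of the organ libraries by tags, held tags at 7 of the 29, or 24.1% (12.2 to 42.1%), against 44.3% of all such sites. It also had the lowest share of its tags at sites, 7.03%, and the part of that in the result was not tested. With sites kept 200 bp apart the kidney share was 23.8% (10.6 to 45.1%) of 21 sites against 46.2%, and at a limit of 20 tags it was 27.1% (16.6 to 41.0%) of 48 sites against 34.7%. Without peaks of 1 position it was 4 of 29 (5.50 to 30.6%) against 21.5%, an interval that includes the share of all sites. Sites in 1 gene are not independent, so these intervals are too narrow.

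**Figure D2:**
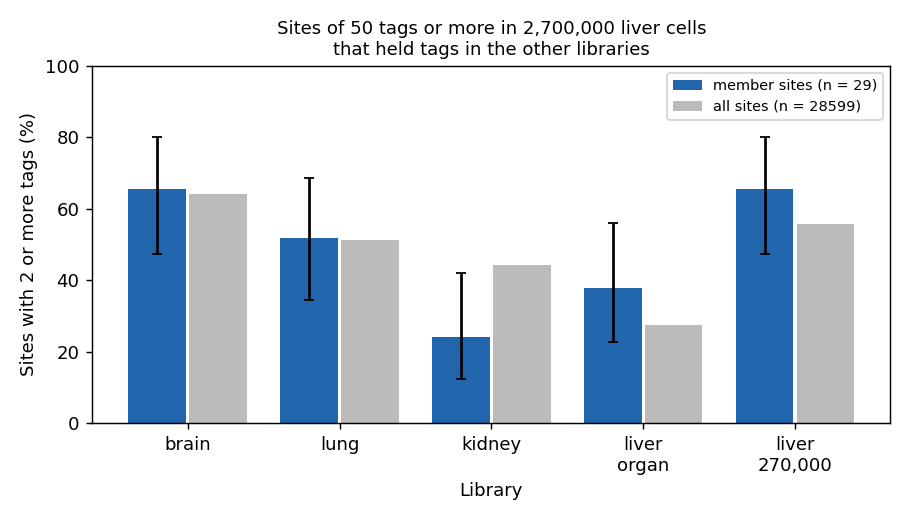
Share of sites with at least 2 tags in each library, for sites with at least 50 tags in 2,700,000 liver cells. Blue bars are the 29 member sites with Wilson 95% intervals, and grey bars all 28599 sites. The kidney bar of the members, 24.1%, lies below the grey bar at 44.3%, and the other members' intervals include the grey bars.

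Some strong member sites held no tags in the other organs, in a share whose interval included that of all strong sites. No tags in brain, lung and kidney were held by 8 of the 29 strong sites, which is 27.6% (14.7 to 45.7%) against 21.1% of all strong sites. They lay at Ambp, Apob, Ass1, Cps1, Tat and Trf. With peaks of 1 position left out of the other libraries, 9 of 29 were without tags, against 41.5% of all strong sites, so that the members' share (31.0%) then lay below that of all sites. Of the 8 sites, 1 held tags in the liver organ and 2 in 270,000 liver cells, at background shares of 8.59% and 28.2%. Tags in brain, lung and kidney together were held by 5 of the 29, against 26.0%.

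Over the whole gene windows, tags in liver were compared with the mean of brain, lung and kidney as the log2 ratio of tags per 1,000,000 tags of the library, with 0.5 tags added. In 2,700,000 liver cells 9 of 35 members were at least 2-fold higher (12.7% of all genes tested) and 5 at least 2-fold lower (37.6%), with a median of 0.36 over members and -0.56 over all genes. Among genes with a site the median of all genes was 0.13. In the liver organ 8 of 34 members were higher (15.5%) and 6 lower (29.5%), with medians of 0.21 and -0.17, and in 270,000 cells 13 of 34 were higher (16.8%) and 4 lower (30.9%), with medians of 0.73 and -0.15. The 3 comparisons share brain, lung and kidney. In the library of 2,700,000 cells, from which the sites were defined, 61.2% of the tags lay at sites, against 7.03% in kidney and 31.1% in lung, and the part of this in the ratios was not tested. The tags were separated into those within 100 bp of a site and those further away.

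Away from sites the members stood higher in the liver libraries than genes in general. In 2,700,000 liver cells 16 of 35 members had at least 2-fold more tags outside sites than the mean of the other organs, against 15.3% of all genes and 12.8% of protein-coding genes, and 2 had at least 2-fold fewer (17.9% of all genes). In 270,000 cells 16 of 34 were higher (19.0% of all genes, 16.1% of protein-coding genes) and 4 lower (33.4%). In the liver organ 10 of 34 were higher (15.2% and 11.6%) and 4 lower (29.5%). The median log2 ratios of the members were 0.89, 0.86 and 0.42 in these libraries, and those of all genes -0.06, -0.17 and -0.14. These ratios are of tags per 1,000,000 tags outside sites. Scaled instead to all tags outside the dense bins, the direction turned in 2,700,000 cells. There 4 members were higher (3.25% of all genes) and 8 lower, with a median of -0.24 against -1.12 for all genes. The median of all genes was itself past the 2-fold limit, so most genes tested were lower on this scale. As levels per kb of window and per 1,000,000 tags outside the dense bins, the median member held 0.331 tags outside sites in 2,700,000 cells, 0.584 in 270,000 and 0.463 in the liver organ, where the median protein-coding gene held 0.181, 0.325 and 0.371. In brain and lung the median member lay below the median protein-coding gene (0.287 against 0.352 and 0.142 against 0.278), and in kidney above it (0.477 against 0.402).

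The counts at Alb, the member with the highest ratio in 270,000 cells, show the pattern in the titration libraries but not in the liver organ. Outside its weak sites the Alb window held 72 tags (56.3 to 90.7) in 2,700,000 liver cells in 31 peaks and 28 tags (18.6 to 40.5) in 270,000 cells in 8 peaks. Brain held 5 tags in 1 peak, lung 0, kidney 9 in 3 peaks and the liver organ 2 in 1 peak. Per 1,000,000 tags outside sites this was 31.0 and 74.0 in the titration libraries and 0 to 6.84 in the 4 organs, so that the liver organ lay with the other organs. The 2,700,000 cell peaks lay along the gene on both strands rather than at 1 place.

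At Tat the liver organ did not differ from kidney beyond counting error. Tat held 152 tags (129 to 178) outside sites in 2,700,000 cells, 52 (38.8 to 68.2) in 270,000, 9 (4.12 to 17.1) in the liver organ, 21 (13.0 to 32.1) in kidney, 6 in lung and 9 in brain, or 65.4, 137, 25.3, 15.7, 13.4 and 12.3 per 1,000,000 tags outside sites. Cps1 held 173, 77, 31, 56, 11 and 30 tags in the same order, which is 74.4, 203, 87.2, 41.7, 24.5 and 41.0 on that scale, and was highest in the 3 liver libraries. Ass1 held 273, 71, 25, 46, 41 and 17 tags, or 117, 188, 70.3, 34.3, 91.4 and 23.3, where lung lay above the liver organ. Pck1 held 76, 24, 0, 27, 3 and 2 tags, with kidney nearest to the titration libraries at 20.1 on that scale against 32.7 and 63.4.

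By role, the carriers stood highest outside sites in the titration libraries and the urea cycle genes in the liver organ. In 2,700,000 cells 6 of 8 carriers were at least 2-fold higher, with a median log2 ratio of 1.42, and in 270,000 cells 5 of 7, with a median of 2.21. In the liver organ 2 of 7 carriers were higher, with a median of 0.43, against 3 of 4 urea cycle genes with a median of 1.18. Ambp had the highest ratio in 2,700,000 cells, 3.20, and Alb in 270,000 cells, 3.84. Trf had 0.05 and 0.02 and Hpx, hemopexin, 1.14 and -1.79, so the role was not uniform. Of the apolipoproteins 4 of 8 were higher in 2,700,000 cells, among them Apoa1 and Apoc3, whose overlapping windows hold the same 44 tags, and 1 of 8, Apob, in 270,000, where 3 were lower. Of the clotting and complement genes 2 of 6 were higher in each titration library, C3 and Fgb in the first and Fgb and Fgg in the second. Of the urea cycle genes 2 of 4 were higher in 2,700,000 cells and 3 in 270,000. Otc, ornithine transcarbamylase, had 18 tags in the liver organ, 12 in 2,700,000 cells, 2 in 270,000, 15 in kidney, 2 in lung and 8 in brain, and was thus at least 2-fold higher in the liver organ alone of the 3 liver libraries. Of the gluconeogenesis and amino acid genes 2 of 6 were higher in 2,700,000 cells and 3 of 6 in each of the other liver libraries. In the liver organ 2 of the 6, Hpd and Pck1, were at least 2-fold lower, each with 0 tags outside sites there. Cyp7a1, the rate-limiting enzyme of bile acid synthesis, was lower in 2,700,000 cells, with 8 tags there, 5 in 270,000, 2 in the liver organ, 14 in kidney, 2 in lung and 11 in brain. Cyp2e1, which oxidises ethanol, held 43, 15, 4, 14, 16 and 4 tags in that order, a log2 ratio of 0.06 in 2,700,000 cells and 1.19 in 270,000.

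**Figure D3:**
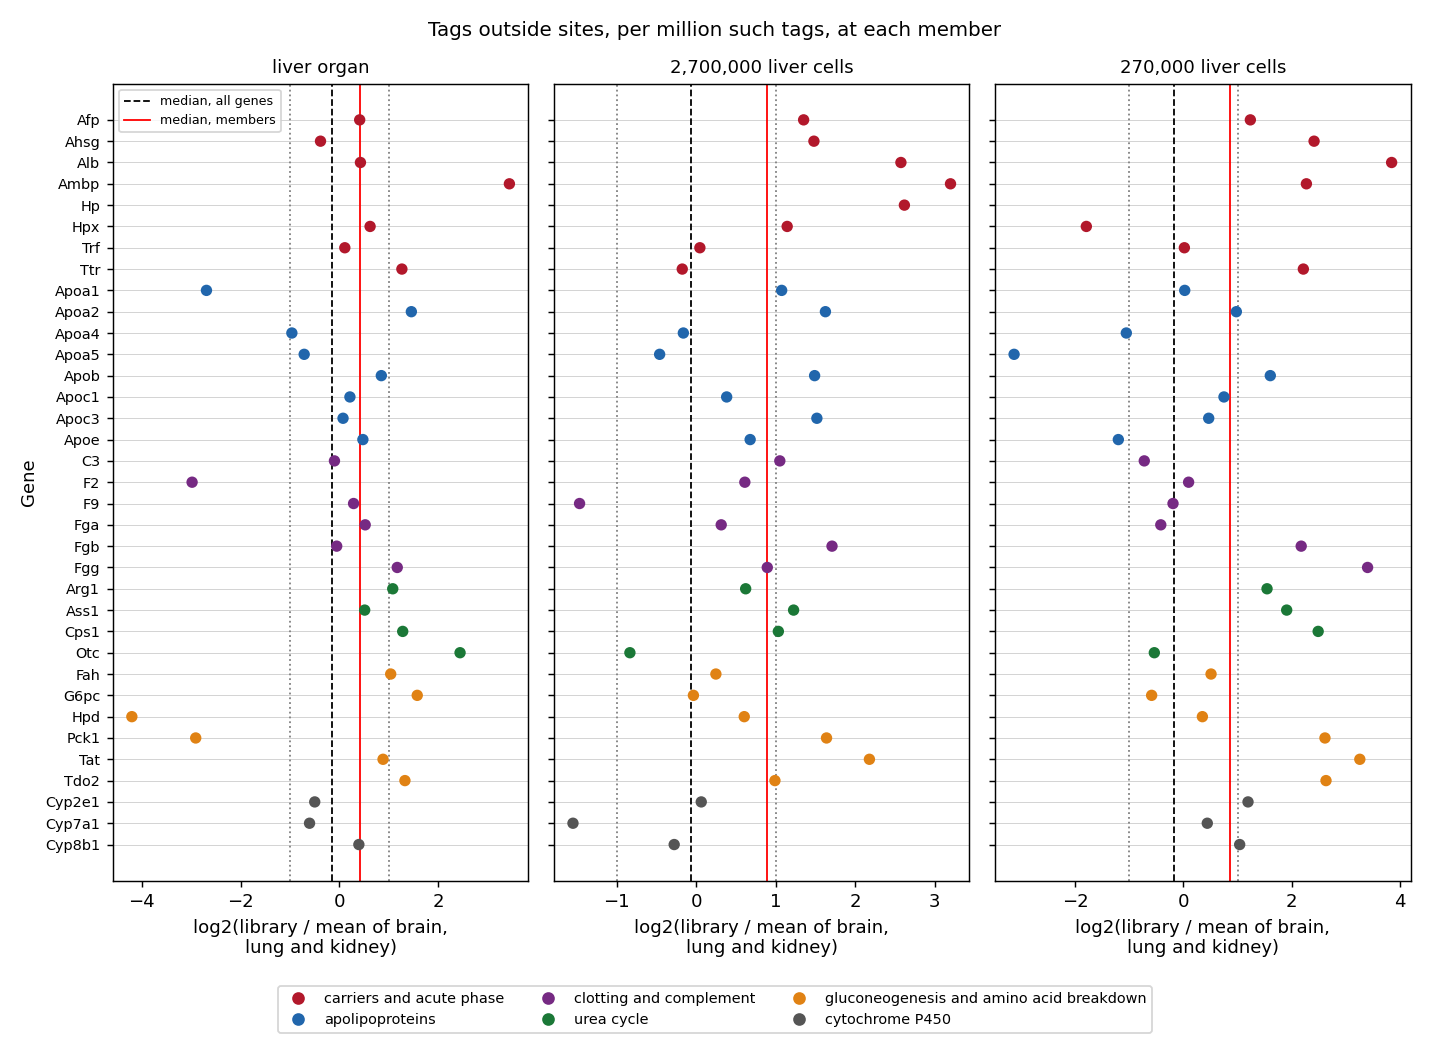
Log2 ratio of tags outside sites, per 1,000,000 such tags, in each liver library to the mean of brain, lung and kidney, for each member (points, coloured by role). Hp has no point where it held under 10 tags over the libraries compared. The red line is the median of the members (0.42, 0.89 and 0.86 from left to right), the dashed line that of all genes (-0.14, -0.06 and -0.17), and dotted lines mark 2-fold.

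Other gene lists were measured in the same way. Of 31 other liver genes, 7 were at least 2-fold higher outside sites in 2,700,000 cells, 13 in 270,000 and 6 in the liver organ, with medians of 0.20, 0.73 and 0.14. Of the kidney genes 5 of 10, 1 of 9 and 1 of 9 were higher, with medians of 0.90, 0.09 and -0.05. Of the brain genes 0 of 9, 1 of 9 and 0 of 9 were higher, of the lung genes 3 of 8, 1 of 7 and 0 of 7, of the blood genes 2 of 5, 2 of 4 and 0 of 4, and of the widely expressed genes 1 of 9, 1 of 9 and 0 of 9. In 2,700,000 cells the kidney genes had a median as high as that of the members. In 270,000 cells both liver lists had higher medians than the kidney, lung, brain and widely expressed genes, and the 4 blood genes had 0.79.

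Other ways of counting kept the median of the members above that of all genes in the titration libraries. With each peak counted as 1 tag, 12 of 34 members were higher in 2,700,000 cells (4.68% of all genes), 10 of 21 in 270,000 (9.24%) and 4 of 19 in the liver organ (6.41%). Without peaks of 1 position, 7 of 28 were higher in 2,700,000 cells (8.41%) and 8 lower, with a median of 0.20 against -0.56 for all genes. More members were thus lower than higher, and the share of all genes that were lower was not computed. At this setting 3 members in 270,000 cells and 2 in the liver organ still had enough tags to be compared. With 20 kb on each side, 4 of 35 members were higher in the liver organ, near the 11.5% of all genes, and 4 were lower. With tags at least 500 bp from any site the counts were 15 of 35 (15.5%), 15 of 32 (19.8%) and 13 of 33 (15.9%). Peaks of 1 position, which make up most of the organ libraries, thus move with this result, and their part in it was not tested. In unsorted tissue a change in a cell type's share and a change within its cells cannot be told apart.

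**Figure D4:**
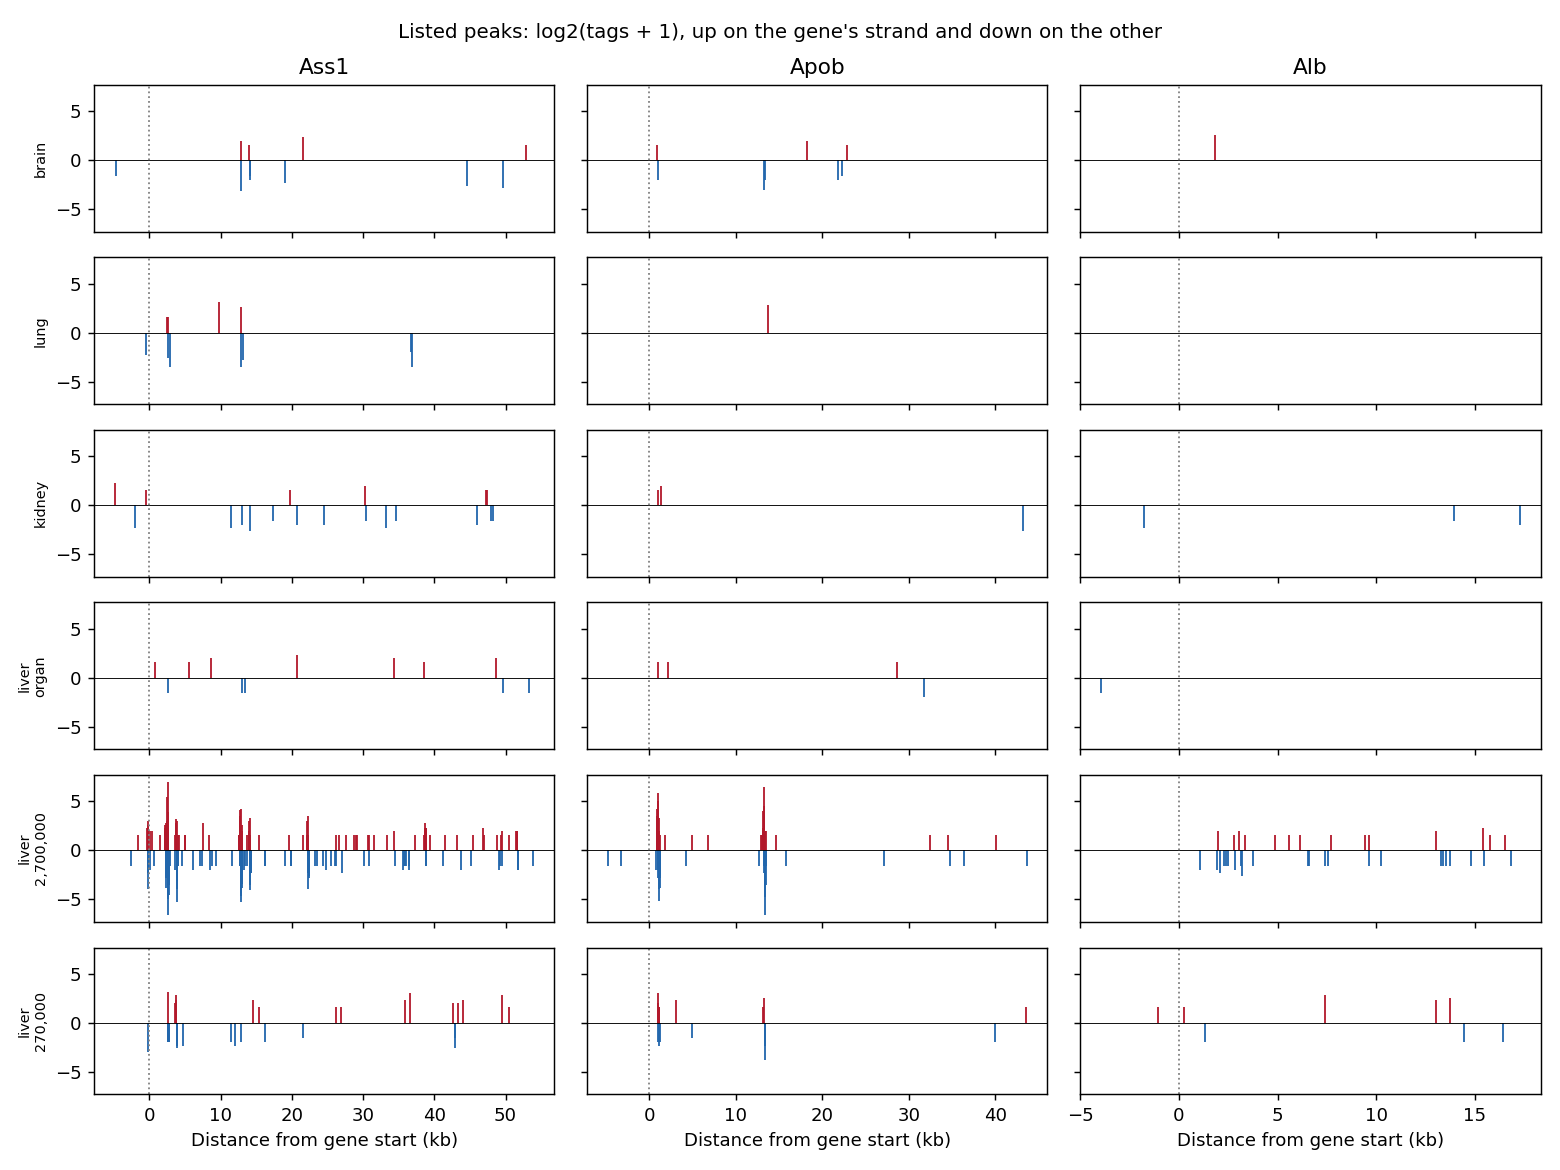
Listed peaks at Ass1, Apob and Alb by distance from the gene start in kb, in 6 libraries (rows). Line height is log2(tags + 1), upward for the strand of the gene and downward for the other strand. Apob has tall clusters in 2,700,000 liver cells that recur in 270,000 cells. Of the Ass1 clusters, those near 2579 and 3862 bp recur there. The Ass1 cluster near 12869 bp has a single peak of 3 tags there, and those near 14125 and 22279 bp have none. Alb has 31 low peaks outside sites spread along the gene in 2,700,000 cells.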

How the data were processed

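CTCF ChIP-exo 5.0 libraries of mouse tissue (1 per group, 7 in all) were analysed, 6 of them in the comparisons. The library of 27,000 cells was too shallow for them. The sample labels name a CTCF antibody, but their extraction text names IgG, and the labels and the study's methods give different formaldehyde concentrations.

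The authors removed non-unique alignments and PCR duplicates, and deposited 21 bp strand-specific peaks with tag counts, not normalized, of at least 2 tags. The submitters' processing notes name BWA 0.7.9a, bcl2fastq 2.16 and mm10. Tags below that minimum are thus missing, which lowers values in shallow libraries most.

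Gene positions and promoters came from RefSeq (GRCm38.p6, the coordinates of mm10). From the deposited counts, tags, pairs and sites were computed per window of 5 kb on each side of the gene, without dense bins (at least 20 peaks in 10 kb in at least 6 libraries). Genes needed 10 tags over the libraries compared, and a call needed a 2-fold ratio. Full values by library were given for member sites with at least 20 tags in an organ or tags in 3 of the organs, for the 10 strongest, and for all sites of Alb, Apoa1, Apoe, Fgb, Cyp2e1, Cyp7a1, Cps1 and Pck1. Other sites named (Ambp, Tat, Ass1, F9) were chosen after their values were seen, as was the separation of tags outside sites. The members and lists were chosen with earlier results of these data known. Pairs and ratios were checked on simulated data. The software was pandas 2.3.3, scipy 1.17.1 and numpy 2.4.6 under Python 3.11.15.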

Additional observations from a re-analysis of the deposited data

Results flagged for a closer look

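The library of 27,000 liver cells entered no comparison. In it 2 members held more than 3 tags over their windows, Apob with 6 and Ass1 with 4, in a library of 22475 tags. Their windows are long, at 49.2 and 60.4 kb, and every peak there had its tags at 1 position. The share of all genes past this limit was not computed. At the 75 member sites the library held 0 tags.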

How the results depend on the processing

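No paired analysis was possible because each group has 1 library. Of 192 recomputed values, 120 stayed within 1.5 times the reported count or within the reported value's width, and 72 moved. Results are in the order liver organ, 2,700,000 cells, 270,000 cells where 3 are given. Causes were not tested. For organ pairs and for 2-fold calls over whole windows, shares of all genes were not recomputed at these settings. Such counts alone cannot separate a change at the members from a change in all genes. With the gene alone, 6 members had an organ pair, and 19, 15 and 16 sites held tags in brain, lung and 270,000 cells. At this width 5 members were higher in the liver organ, and the medians in the titration libraries were 0.51 and 1.18. Outside sites 6 of 23 members were higher in the liver organ, against 14.3% of all genes, and 6 were lower. With 20 kb on each side, 55, 41, 33, 20 and 44 sites held tags in brain, lung, kidney, liver organ and 270,000 cells. The titration medians were then 0.61 and 0.51, and 3 and 2 members were lower. Outside sites 4 of 35 members were higher in the liver organ at that width, near the 11.5% of all genes, and 4 were lower. Without peaks of 1 position, 7 members had an organ pair, and 9, 7, 6 and 17 sites held tags in lung, kidney, liver organ and 270,000 cells. The medians were then -0.42, 0.0075 and 0.13, and 1 and 5 members were higher in the liver organ and 270,000 cells. Outside sites 1 of 2, 7 of 28 and 2 of 3 members were higher, against 13.4%, 8.41% and 18.5% of all genes. With peaks of at least 5 tags, 3 members had an organ pair, 11, 13, 3, 0 and 7 sites held tags in the 5 libraries, the medians in the first 2 comparisons were 1.26 and 0.23, 16 members were higher and 0 lower in the liver organ, 11 and 12 were lower in the titration libraries, and the median of all genes in the liver organ was 0.96; outside sites 21, 10 and 10 were higher and 0, 12 and 12 lower, where 94.7%, 26.0% and 21.7% of all genes were higher. Outside sites the medians of all genes at that limit of 5 tags were 3.04, -1.39 and -1.41. The share of all genes that were lower was not computed there. With centres 20 to 60 bp apart 8 members had an organ pair. In 100 bp around the site, 9 and 16 sites held tags in kidney and 270,000 cells, and 4 strong sites had none in brain, lung and kidney. With at least 5 tags at the site, 5, 2 and 17 sites held tags in kidney, liver organ and 270,000 cells. With sites 50 bp apart, 36 and 19 held tags in lung and liver organ. Scaled to all listed tags, the medians were -0.074 and 0.46 in the liver organ and 270,000 cells, and 5 members were higher in the liver organ. Scaled to tags at sites, the medians were 0.76, -1.79 and 0.29, 16 and 0 members were higher in the first 2 and 27 and 9 lower in the titration libraries, with all-gene medians of 0.30, -2.76 and -0.80. A pseudocount of 2 gave 0.27 and a mean without brain 0.40 in 2,700,000 cells; means without lung or kidney gave 0.96 and 0.56 in 270,000. With each peak as 1 tag, 4 and 10 members were higher outside sites in the liver organ and 270,000 cells, and scaled to listed tags outside dense bins 4 were higher and 8 lower in 2,700,000 cells, with a median of -0.24 against -1.12 for all genes. Under every alternative run for whole windows, the members' median stayed above that of all genes in the 3 comparisons, by 0.19 to 1.10 in 2,700,000 cells. Outside sites it did so as well, except in the liver organ without peaks of 1 position (2 members compared, -0.65). The alternatives for 270,000 cells, for strong sites and for tags outside sites were chosen after seeing the data.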
